A study of Homo sapiens with 4 samples.

Results

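The genes described are 47 genes of the lysosome, of autophagy and of the TFEB family of transcription factors, and their members were taken as the probe sets that the array's annotation assigns to exactly 1 of these symbols. This gave 88 of the 22277 probe sets on the array and 46 of the 47 genes. GLB1 had no probe set of its own in the annotation and is not analysed here. Of the 46 genes, 41 passed the brightness filter used for testing, which requires the mean log2 value of a gene to reach the median of all probe sets (an intensity of about 111). TFEB, IDUA, ARSA, ARSB and MANBA did not pass it.

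RNA was measured on 4 arrays of BJ-TE cells, which descend from the BJ strain of human foreskin fibroblasts, with 1 array for each group. The groups were p73 shRNA cells at 100% and at 40% confluence, and cells with a control hairpin labelled ns at 100% and at 40% confluence; all 4 groups carry a hairpin. No group had a replicate, and the labels do not say whether the cultures were separate, so every p-value reflects the spread among these 4 arrays alone. The error behind it is how far the confluence ratio differs between the hairpins, averaged over genes of similar brightness. It holds no spread between replicates. A ratio in 1 background or at 1 stage rests on 2 arrays and has no replicate check.

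TP73, the target of the hairpin, gave intensities of 2.04 at 100% and 2.09 at 40% confluence in p73 shRNA cells and of 1.66 and 1.68 in ns shRNA cells, at the floor of every array, so it does not check the labels. Fibroblast markers were present, with 11 of 12 above the filter. Their summed intensity was 84176 at 100% and 73019 at 40% with p73 shRNA, and 79070 and 64652 with ns shRNA. Single markers moved in both directions: DCN was higher and VIM lower on the confluent array with each hairpin. Among melanocyte markers only MITF passed it, of 6 measured, and among macrophage and blood markers only LAPTM5, of 7. The summed intensity of the macrophage and blood markers was 947 at 100% and 893 at 40% in p73 shRNA cells, against 977 and 696 in ns shRNA cells. LAPTM5 alone made up most of it, at 813 and 749 with p73 shRNA and 815 and 602 with ns shRNA. No osteoclast marker of 3 measured and no endothelial marker of 5 passed the filter, and KRT18 was the only one of 6 epithelial markers that did. For the beta-actin control probe sets, the intensity at the 3' end over that at the 5' end was 1.38 at 100% and 1.09 at 40% with p73 shRNA, and 1.47 and 1.24 with ns shRNA. Both confluent arrays had the higher ratio for their hairpin, and its part in the confluence ratios was not tested. RNA came from whole cultures, so less RNA per cell and fewer cells with the RNA cannot be told apart.

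Lysosomes are acidic organelles in which proteases, glycosidases, sulfatases and lipid enzymes break down material delivered by endocytosis and by autophagy. A proton pump, the V-ATPase, acidifies them, and heavily glycosylated membrane proteins line them. In autophagy a membrane closes around cytoplasm and fuses with the lysosome. TFEB, TFE3 and MITF are basic helix-loop-helix factors that bind E-box sequences in the promoters of many of these genes. The kinase complex mTORC1 holds TFEB and TFE3 in the cytosol when nutrients are plentiful, so their activity depends strongly on where the proteins are and not only on RNA levels.

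The TFEB-family binding sequence was looked up in the promoters because it links the transcription factors to the other genes. The core was searched as TCACGTG or its complement CACGTGA, on both strands, in RefSeq windows of 300 bases (250 before to 50 after the gene's start, build GRCh38.p14); every match contains the shorter E-box CACGTG, and the extended palindrome GTCACGTGAC contains the core. Windows were found for 35 of the 47 genes. The core occurred in 7 of these 35 (20%), in 21 of 89 windows of other lysosome, autophagy and mTORC1 genes (23.6%) and in 1026 of all 27305 windows (3.76%). The extended palindrome occurred in 2 of the 35, in 6 of the 89 and in 98 of all windows (0.359%). The 7 genes were ATP6V0D1, CTSA, CTSD, GAA, LAMP1, MCOLN1 and NEU1. A match is a match of letters and not a measured binding site.

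Of these, 4 genes held at least 2 cores and are shown as the stretch that spans them upstream of the start, with the cores in capitals. CTSA (chr20:45891283-45891325, plus strand) and GAA (chr17:80101495-80101565, plus strand) are hydrolases that rose at confluence, MCOLN1 (chr19:7522573-7522623, plus strand) is a channel called lower, and LAMP1 (chr13:113297037-113297226, plus strand) is a membrane protein that did not pass the test. The stretch of LAMP1 holds 5 of the 6 E-boxes in its window.
CTSA: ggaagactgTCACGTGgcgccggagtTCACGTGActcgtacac
GAA: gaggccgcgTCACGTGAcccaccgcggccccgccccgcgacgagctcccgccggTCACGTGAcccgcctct
MCOLN1: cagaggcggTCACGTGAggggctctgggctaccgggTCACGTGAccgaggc
LAMP1: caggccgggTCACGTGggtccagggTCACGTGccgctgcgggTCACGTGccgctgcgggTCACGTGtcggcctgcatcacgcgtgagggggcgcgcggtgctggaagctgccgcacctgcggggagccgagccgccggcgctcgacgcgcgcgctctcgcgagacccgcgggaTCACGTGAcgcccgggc
Of the 7 genes with a core, CTSA and GAA rose at confluence and MCOLN1 was called lower, with a lower value in ns shRNA cells only. GAA passed the brightness filter only through its confluent ns shRNA array. ATP6V0D1, CTSD, LAMP1 and NEU1 did not pass the test described next, in which 36.6% of all genes were called. Whether a core goes with the confluence ratio was not tested.

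The effect of confluence was assessed at 100% against 40% with each hairpin serving as 1 repeat. Genes for degradation rose moderately: 10 of 20 hydrolase genes above the filter (a group that includes the saposin precursor PSAP) rose and none fell. The 10 include GAA, which would not have passed the filter without its confluent ns shRNA array. Of 5 proton pump subunits 1 rose and 4 did not pass, and of 9 autophagy genes 2 rose and 2 fell; differences between these groups of genes were not tested. Together, 15 of 41 genes rose, 3 fell and 23 did not pass (limma, Benjamini-Hochberg adjusted p below 0.05 over 6759 genes). The background was high: 36.6% of all genes tested were called, 20.4% higher and 16.1% lower, against 43.9% of the 41 genes called, 36.6% higher and 7.32% lower. The share of genes called is thus near the background. The direction was the same in both backgrounds for 33 of the 41 genes, compared with 76.2% of all genes. Both confluent arrays lay above both arrays at 40% for 18 of the 41 genes and below them for 10, compared with 33.7% and 30.8% of all genes. For the 20 hydrolase genes these counts were 12 and 2. The changes were small, with rises of 1.26-fold to 1.92-fold on the scale tested, log2 of intensity plus a pseudocount of 11.5, which understates the ratios of dim genes. No member was 2-fold higher or lower in both backgrounds, while 3.23% of all genes were 2-fold higher and 1.32% 2-fold lower in both. The average log2 ratio had a median of 0.08 over the 41 genes and 0.31 over the 20 hydrolase genes, beside 0.01 over all genes. Without the intensity trend in the error model, 10 of the 41 genes and 6 of the 20 hydrolase genes were called. These hydrolases were all higher, and 30.6% of all genes were called in this setting. CTSA, CTSB, GUSB, HEXA, LAMP2, SCARB2, MCOLN1, ATP6V1A and ATG12 were then no longer called. Without shRNA in the model the counts were 5 and 4, beside 19.9% of all genes.

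**Figure D1:**
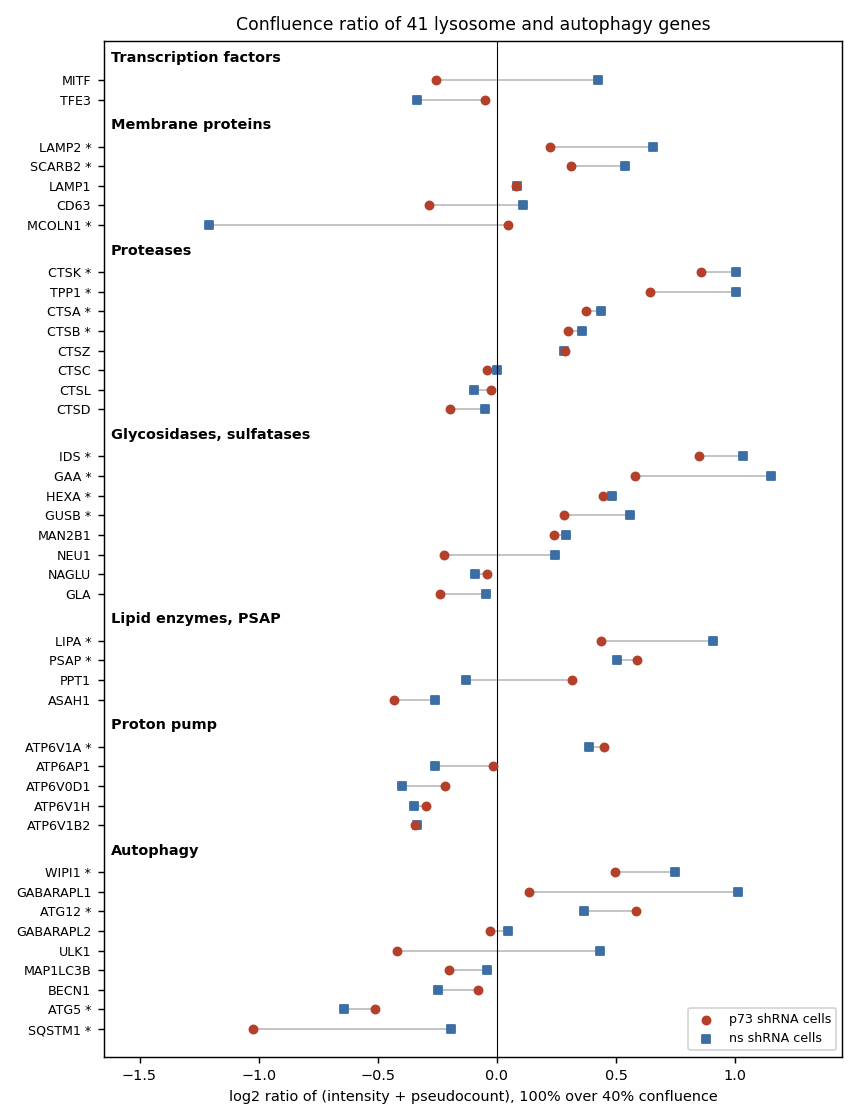
Log2 ratio of (intensity + pseudocount) at 100% over 40% confluence for each of 41 genes, in p73 shRNA cells (circles) and ns shRNA cells (squares), ordered by the average within each role; a star marks genes called by limma. The highest proteases, glycosidases and lipid enzymes reach ratios of about 1, while others of each kind lie below 0 in both backgrounds. For 3 of 5 proton pump subunits both confluent arrays lay below both others, beside 30.8% of all genes. No proton pump subunit was called lower.

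**Figure D2:**
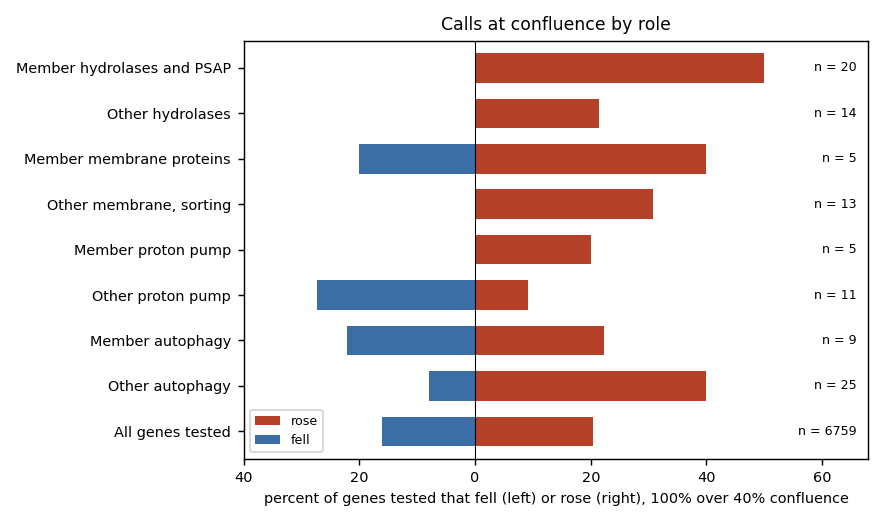
Percent of genes tested that rose (right) or fell (left) at 100% over 40% confluence, by role, for the genes described here and for other genes of the same pathways, with all 6759 genes at the bottom. No hydrolase of either list was called lower. Of the other hydrolases 21.4% were called higher, near the 20.4% of all genes. Their median average log2 ratio was 0.40, beside 0.31 for the hydrolases described here and 0.01 for all genes. The largest share of falls was among the other proton pump subunits.

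Among the proteases, 4 of 8 rose. CTSK, cathepsin K, a collagen-degrading cysteine protease, had an intensity of 3694 at 100% and 2034 at 40% confluence in p73 shRNA cells, and of 3142 and 1564 in ns shRNA cells. Both confluent arrays lay above both arrays at 40%, and the average log2 ratio was 0.93 (SE 0.15, limma adjusted p 4e-09). TPP1, tripeptidyl peptidase, whose loss causes a childhood neuronal storage disease, had 2571 at 100% and 1644 at 40% with p73 shRNA, and 2493 and 1239 with ns shRNA. Its average was 0.82 (SE 0.15, limma adjusted p 5.75e-07), and the confluent arrays again did not overlap with the others. CTSA, the protective protein of neuraminidase and beta-galactosidase, averaged 0.40, and CTSB, cathepsin B, 0.33 (limma adjusted p 0.0492). The lowest was CTSD, the aspartic protease cathepsin D, with 226 at 100% and 261 at 40% with p73 shRNA and 200.5 and 208 with ns shRNA, and an average of -0.12 (SE 0.24, limma adjusted p 0.724). CTSC, CTSL and CTSZ, other cysteine cathepsins, averaged -0.02, -0.06 and 0.28 and did not pass either.

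Of 8 glycosidases and sulfatases above the filter, 4 rose. IDS, iduronate sulfatase, which acts on heparan and dermatan sulfate, had 566 at 100% and 309 at 40% confluence in p73 shRNA cells, against 878 and 423 in ns shRNA cells. Both confluent arrays lay above both others, and the average log2 ratio was 0.94 (SE 0.19, limma adjusted p 6.87e-06). Its further probe sets above the filter gave smaller averages of 0.72, 0.47 and 0.13, and only the first of these was called. GAA, the acid alpha-glucosidase that degrades glycogen, had 118 at 100% and 75.3 at 40% with p73 shRNA, and 273 and 117 with ns shRNA. Its average was 0.87 (SE 0.29, limma adjusted p 0.011), but the confluent p73 shRNA array exceeded the ns shRNA array at 40% by little. The gene was not called without the brightness filter or after quantile normalization. Its mean log2 value of 7.15 lay close to the filter of 6.94, and the confluent ns shRNA array, which stood above the others, raised that mean. Without that array the gene would not have passed the filter, so its call depends on the array where it was high. HEXA, the alpha subunit of beta-hexosaminidase, averaged 0.46, and GUSB, beta-glucuronidase, 0.42. GLA, alpha-galactosidase, was lowest with 1394 at 100% and 1649 at 40% in p73 shRNA cells and 1557 and 1607 in ns shRNA cells, and its average of -0.14 (SE 0.15, limma adjusted p 0.496) did not pass. MAN2B1, NEU1 and NAGLU averaged 0.27, 0.01 and -0.07 and did not pass.

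Among the lipid enzymes and their activator, PSAP and LIPA rose. PSAP, the precursor of the saposins that present sphingolipids to their hydrolases, had 4301 at 100% and 2862 at 40% with p73 shRNA, and 5157 and 3629.8 with ns shRNA (average 0.55, SE 0.14, limma adjusted p 0.000683). LIPA, the acid lipase of cholesteryl esters, had 1744 at 100% and 1285 at 40% with p73 shRNA, and 1819 and 965 with ns shRNA (average 0.67, SE 0.15, limma adjusted p 0.000124). For both genes the confluent arrays lay above the others. ASAH1, acid ceramidase, did not pass and its probe sets differed in direction. The one used had 1092 at 100% and 1477 at 40% in p73 shRNA cells and 1105 and 1326 in ns shRNA cells, with an average of -0.35 (SE 0.16, limma adjusted p 0.0711), while the other 2 above the filter averaged 0.27 and 0.12. PPT1, a palmitoyl-protein thioesterase, averaged 0.09.

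**Figure D3:**
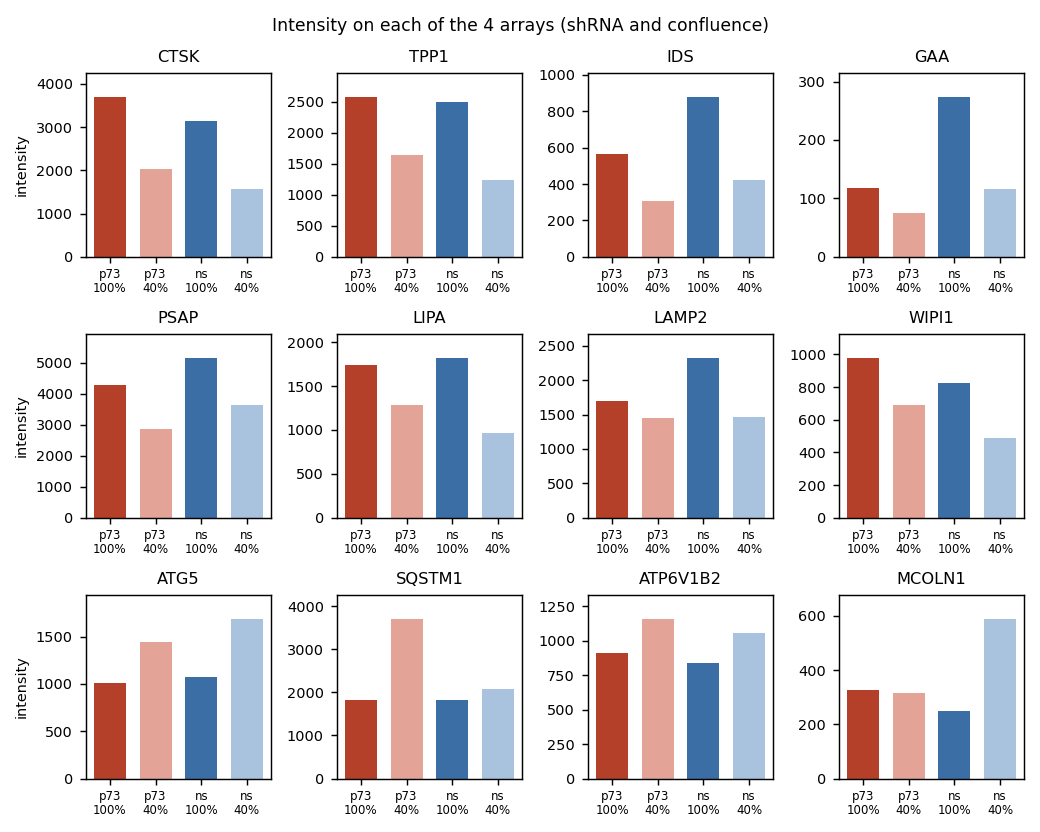
Intensity of 12 genes on each of the 4 arrays (linear axis from 0 for each gene; 1 bar is 1 array, so there are no error bars), with p73 shRNA in red and ns shRNA in blue, and the 100% array left of the 40% array in each. CTSK, TPP1, IDS, PSAP, LIPA and WIPI1 are higher on both confluent arrays, ATG5 and ATP6V1B2 lower, while SQSTM1 and MCOLN1 each have 1 array at 40% that stands above the other 3.

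Membrane proteins were mixed: LAMP2 and SCARB2 rose, MCOLN1 fell, and LAMP1 and CD63 did not pass. LAMP2, a major lysosomal membrane glycoprotein, had 1701 at 100% and 1456 at 40% with p73 shRNA, and 2323 and 1469 with ns shRNA (average 0.44, SE 0.15, limma adjusted p 0.0137). SCARB2, the receptor that carries glucocerebrosidase to lysosomes, averaged 0.42 (limma adjusted p 0.0439). MCOLN1, a lysosomal calcium channel, had 328 at 100% and 317 at 40% with p73 shRNA, and 248 and 589 with ns shRNA. Its average of -0.58 (SE 0.21, limma adjusted p 0.0182) came from the ns shRNA cells, where the log2 ratio was -1.21, against 0.05 with p73 shRNA. The model does not enlarge a gene's error when its ratios differ, and without the intensity trend, where it does, the adjusted p no longer passed. LAMP1, at 9029 to 10145 among the brightest of these genes, averaged 0.08 (SE 0.14), and the tetraspanin CD63 averaged -0.09.

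The V-ATPase subunit ATP6V1A, the catalytic A subunit, was the one that rose. It had 1575 at 100% and 1149 at 40% confluence with p73 shRNA, and 1717 and 1311 with ns shRNA (average 0.42, SE 0.15, limma adjusted p 0.023). Its other probe set averaged -0.12 and was not called. ATP6V1B2, the B subunit of the same catalytic ring, was lowest with 911 at 100% and 1159.6 at 40% with p73 shRNA, and 837 and 1057 with ns shRNA. Both confluent arrays lay below both others, but the average of -0.34 (SE 0.16, limma adjusted p 0.0907) did not pass. ATP6V1H, ATP6V0D1 and the accessory protein ATP6AP1 averaged -0.32, -0.31 and -0.14.

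Of the autophagy genes, WIPI1 and ATG12 rose and SQSTM1 and ATG5 fell at confluence. WIPI1, which binds phosphoinositides on forming autophagosomes, had 978 at 100% and 691 at 40% with p73 shRNA, and 823 and 486 with ns shRNA (average 0.62, SE 0.17, limma adjusted p 0.00197). ATG5 and ATG12 form the conjugate that promotes LC3 lipidation. ATG5 had 1007 at 100% and 1442 at 40% with p73 shRNA, and 1075 and 1686 with ns shRNA (average -0.58, SE 0.16, limma adjusted p 0.00138), and ATG12 averaged 0.47 (SE 0.16, limma adjusted p 0.0117). Each has a further probe set of the opposite direction, and neither was called when probe sets were averaged (averages of -0.25 and 0.40). SQSTM1, the cargo receptor p62, had 1819 at 100% and 3708 at 40% with p73 shRNA, and 1818 and 2077 with ns shRNA. The p73 shRNA array at 40% stood apart, and the average of -0.61 (SE 0.15, limma adjusted p 0.000271) combined log2 ratios of -1.02 and -0.19. GABARAPL1, an LC3 homologue, had ratios of 0.13 with p73 shRNA and 1.01 with ns shRNA (limma adjusted p 0.0576). GABARAPL2, MAP1LC3B, BECN1 and the kinase ULK1 had averages between -0.16 and 0.01 and did not pass.

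The transcription factors themselves showed no call. TFE3 had 1358 at 100% and 1404 at 40% confluence with p73 shRNA, and 1098 and 1386 with ns shRNA. Its average was -0.19 (SE 0.16, limma adjusted p 0.355). The further TFE3 probe set above the filter averaged -0.40 (SE 0.20, limma adjusted p 0.102 over all probe sets) and was not called. MITF had 256 at 100% and 307 at 40% with p73 shRNA, and 411 and 303 with ns shRNA (average 0.09, SE 0.21, limma adjusted p 0.789). Its ratios had opposite signs in the 2 backgrounds. The brighter TFEB probe set read 77.5 at 100% and 38.8 at 40% with p73 shRNA, and 103 and 48.2 with ns shRNA. The other TFEB probe set read 50.7 and 8.44 with p73 shRNA, and 19.6 and 64.4 with ns shRNA. Both lay below the filter and were not tested.

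Among the other genes below the filter, MANBA, beta-mannosidase, read 122 at 100% and 131 at 40% with p73 shRNA, and 165 and 37.5 with ns shRNA. ARSA and ARSB, sulfatases of sulfatide and dermatan sulfate, read 50.3 to 78.9 and 42.5 to 54.9. The brightest probe set of IDUA, alpha-iduronidase, read 34.4 to 60.7. These are not shown to be absent or unchanged.

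Several genes had more than 1 probe set, and these did not always move together. For the 18 genes called at confluence, 17 of 20 further probe sets above the filter had the same direction as the one used. The 3 that did not belonged to ATP6V1A, ATG5 and ATG12. For ATG5, probe set 202512_s_at was higher at confluence, with 257 at 100% and 192 at 40% with p73 shRNA and 417 and 219.7 with ns shRNA, while 210639_s_at was lower like the one used. The direction of ATG5 is therefore not settled by these arrays. CTSB was brighter in the probe set used, but its further probe sets gave larger averages, up to 0.94 (213275_x_at, SE 0.15, limma adjusted p 7.44e-08 over all probe sets).

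**Figure D4:**
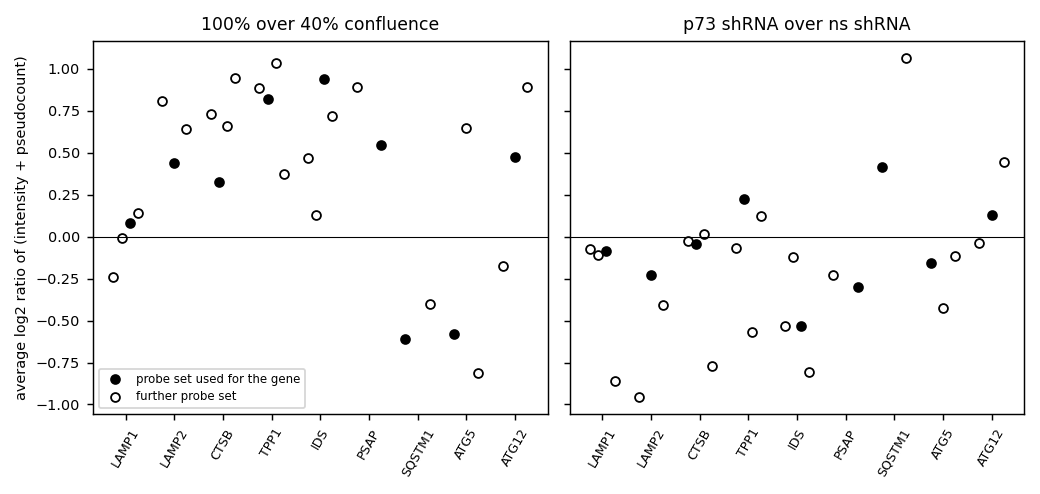
Average log2 ratio of (intensity + pseudocount) for each probe set above the filter in 9 genes with several, at 100% over 40% confluence (left) and with p73 shRNA over ns shRNA (right); filled points are the probe sets used for the gene. Probe sets of ATG5 lie on both sides of 0 at confluence, and single probe sets of LAMP1, LAMP2, CTSB and SQSTM1 lie far from their neighbours with p73 shRNA.

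The next comparison, p73 shRNA over ns shRNA, asks whether these genes differ when p73 is targeted. None of the 41 genes was called (limma, Benjamini-Hochberg adjusted p below 0.05), against 2.72% of all genes; 8 had an unadjusted p below 0.05, as did 922 of all 6759. The median average log2 ratio was 0.02, beside -0.00 over all genes. The genes had the same direction at both stages in 30 of 41 cases, compared with 58.5% of all genes.

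The 8 genes with an unadjusted p below 0.05 were chosen after their values were seen. GAA was furthest, at an average of -0.85 (SE 0.29, limma adjusted p 0.0846), with log2 ratios of -1.13 at 100% and -0.56 at 40% confluence. Its intensities were 118 at 100% and 75.3 at 40% with p73 shRNA, and 273 and 117 with ns shRNA. Thus p73 shRNA was lower at both stages, but the confluent ns shRNA array stood apart and the gene lay close to the brightness filter. IDS averaged -0.53 (SE 0.19, limma adjusted p 0.102), and PPT1 -0.36 and PSAP -0.30. On the positive side, SQSTM1 averaged 0.42 (SE 0.15, limma adjusted p 0.0984), WIPI1 0.37, CD63 0.32 and CTSK 0.30. For SQSTM1 the log2 ratio was 0.83 at 40% and 0.00 at 100%.

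**Figure D5:**
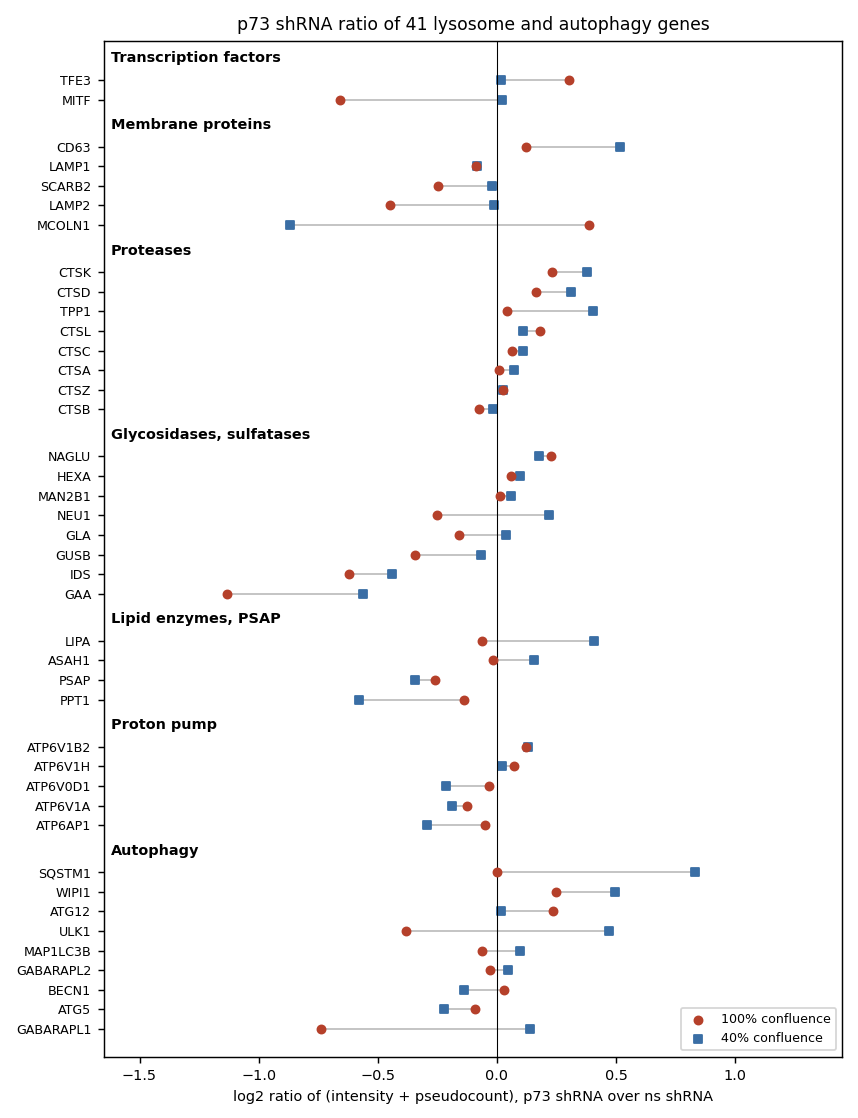
Log2 ratio of (intensity + pseudocount) with p73 shRNA over ns shRNA for each of 41 genes, at 100% (circles) and 40% confluence (squares), ordered by the average within each role. No gene was called; GAA and IDS lie below 0 at both stages, and SQSTM1 is at 0.83 at 40% and 0.00 at 100%.

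The result depended on the probe set for 4 genes. Tested one by one, with adjustment over all probe sets above the filter, single probe sets of LAMP2, LAMP1 and CTSB were lower with p73 shRNA and 1 of SQSTM1 was higher, against 2.32% of all probe sets called. The LAMP2 probe set 200821_at had 1568 at 100% and 733 at 40% with p73 shRNA, and 2518 and 1736 with ns shRNA (average -0.96, SE 0.15, limma adjusted p 2.05e-06). The probe set used for LAMP2 averaged -0.23 and the third -0.41, and neither was called. The SQSTM1 probe set 213112_s_at had 190.0 at 100% and 322 at 40% with p73 shRNA, against 109 and 116 with ns shRNA (average 1.07, SE 0.26, limma adjusted p 0.00735). p73 shRNA was thus higher at both stages in this probe set, and at 40% alone in the brighter one. The CTSB probe set 213275_x_at averaged -0.77 (limma adjusted p 0.00026), and the LAMP1 probe set 213728_at, the dimmest of 4, -0.86 (limma adjusted p 0.0262).

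Other genes of the same pathways were listed by role to set the members in context. Of 116 listed, 88 had a probe set of their own and 78 passed the filter. At confluence 20 rose, 7 fell and 51 did not pass, so 34.6% were called, beside 36.6% of all genes. Without the intensity trend 18 of these 27 were called and none of the remaining genes, beside 30.6% of all genes. Of the genes named next, MAN2B2, GNPTAB, HGSNAT, ATP6V1D, LAMTOR5 and RRAGC were then not called. Among 14 other hydrolases and activators, FUCA1, the lysosomal fucosidase, rose most, with an average of 1.71 (SE 0.25, limma adjusted p 2.15e-10), and CTSO and MAN2B2 rose by 0.74 and 0.57. None fell, and 21.4% were called, beside 36.6% of all genes called and 20.4% called higher. The average log2 ratio was above 0 for 12 of the 14. Its median was 0.40, beside 0.31 over the 20 hydrolase genes described above and 0.01 over all genes. For MAN2B2 the log2 ratio was 1.09 with p73 shRNA and 0.06 with ns shRNA. FUCA1 had 285 at 100% and 76.1 at 40% with p73 shRNA, and 480.2 and 143 with ns shRNA, so both confluent arrays lay above the others. On the arrays at 40% alone its mean log2 value would not have reached the filter, so it was tested only through the arrays where it was high. Without the filter it was called too (limma adjusted p 0.00286).

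Of 13 other membrane and sorting genes, 4 rose and none fell. The 30.8% called compare with 36.6% of all genes called and 20.4% called higher. SLC17A5, the sialic acid exporter, rose by 0.80, IGF2R, the receptor that sorts hydrolases by their mannose 6-phosphate tag, by 0.79, and HGSNAT by 0.46. GNPTAB, a subunit of the enzyme that makes the tag, rose by 0.61, but its log2 ratio was 1.26 with p73 shRNA and -0.05 with ns shRNA. It was also the 1 gene of this list that fell with p73 shRNA (average -0.89, SE 0.17, limma adjusted p 5.75e-05). Its intensities were 839 at 100% and 343 at 40% with p73 shRNA, and 991 and 1026 with ns shRNA, so the p73 shRNA array at 40% stood apart, and GNPTAB was not called with p73 shRNA without the intensity trend.

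Of 11 other subunits of the proton pump, 3 fell and 1 rose at confluence (36.4% called, beside 36.6% of all genes). ATP6V0B, of the membrane ring, fell by 0.76, ATP6V1C1 by 0.55 and ATP6V1D by 0.44, while the accessory protein ATP6AP2 rose by 0.75. The median over these subunits was -0.23, and that over the 5 described above -0.31.

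Of 25 other autophagy genes, 10 rose and 2 fell at confluence (48% called, beside 36.6% of all genes). The mitophagy receptors BNIP3L and BNIP3, both induced by low oxygen, rose by 1.79 and 1.52, RB1CC1, a scaffold of the ULK kinase complex, by 1.38, and the cargo receptor NBR1 by 0.92. All 4 had ratios of at least 0.80 in both backgrounds. With p73 shRNA 1 rose, ATG2A, a lipid transfer protein of the growing membrane (average 0.86, limma adjusted p 0.0064), with log2 ratios of 0.42 at 100% and 1.30 at 40%; it was not called without the intensity trend.

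Of 15 genes of mTORC1 and its nutrient control, 2 rose and 2 fell at confluence (26.7% called, beside 36.6% of all genes). None was called with p73 shRNA. DDIT4, an inhibitor of mTORC1 signalling, averaged 3.08, and TSC2, a subunit of the complex that restrains it, 0.54. For TSC2 the log2 ratio was 0.15 with p73 shRNA and 0.93 with ns shRNA, where the array at 40%, at 259, stood below the others. TSC2 was not called after quantile normalization or when probe sets were averaged. LAMTOR5 and RRAGC, of the machinery that brings mTORC1 to the lysosome, fell by 0.48 and 0.36.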

How the data were processed

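Per the labels, trizol was used for RNA extraction and the biotin-labelled RNA was hybridised by the Affymetrix standard protocol. The deposited table gives 1 linear intensity per probe set and array; the sources used here do not name the software that made it. From the values, the authors' intensities had a mean of about 500 on each array after trimming 2% at either end, at 499.87 to 499.89, and were used as deposited. Such scaling hides any shift common to most genes. The number of arrays limits the precision.

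Values were converted to log2(intensity + 11.5), a pseudocount at the 20th percentile of the table, which understates the ratios of dim genes. Current symbols were found through the Entrez ID for 19052 of 19064 probe sets with 1 gene symbol; 62 controls were left out. Each gene was represented by the brightest of its probe sets by mean log2 value, and 6759 of 11963 genes reached 6.94, the median over probe sets. limma 3.58.1 in R 4.3.3 fitted confluence and shRNA over all 4 arrays, with empirical Bayes moderation that follows an intensity trend; tests were two-sided, with Benjamini-Hochberg adjustment over all genes. There is 1 residual degree of freedom. Under the trend the prior degrees of freedom came out infinite, so a gene's error was the average spread at its brightness; without it they were 15.8. Promoters came from RefSeq, GRCh38.p14. Coordinates of probe sets are not given.

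The members, lists and alternatives were chosen with earlier results of these data known. Values on all arrays are given for called genes whose smaller ratio was at least 0.5 (log2), for the transcription factors and for the highest and lowest gene of each role by confluence average, and up to 4 called genes per other list are named. Genes named in the p73 comparison and under single probe sets were chosen after their values were seen. Alternatives covered normalization, pseudocount, brightness filter, treatment of several probe sets, moderation and covariate. Figures used matplotlib 3.10.9.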

Additional observations from a re-analysis of the deposited data

Results flagged for a closer look

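With 1 array in each group, a difference between backgrounds or stages has no test. Genes are given here when the ratio was at least 0.2 (log2) in one direction in one background or stage and at least 0.2 in the other direction in the other, a size set after the values were seen. Over all genes 5.05% did so for the confluence ratio and 7.32% for the p73 shRNA ratio. For the confluence ratio, ULK1 was -0.42 with p73 shRNA and 0.43 with ns shRNA, a difference of -0.85; MITF was -0.25 and 0.43, a difference of -0.68; and NEU1 was -0.22 and 0.24, a difference of -0.47. For the p73 shRNA ratio, MCOLN1 was 0.39 at 100% and -0.87 at 40% confluence, a difference of 1.25. The same 2 differences of ULK1 and NEU1 reappear there, -0.85 and -0.47, because both comparisons use the same 4 arrays. None of these differences was tested.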

How the results depend on the processing

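The model already compares the stages within each hairpin; the form without shRNA is its unpaired counterpart. Leaving out an array leaves no residual degree of freedom. Members called at confluence, 18 of 41 at first, numbered 9 of 46 without the brightness filter, beside 13% of all genes. They numbered 10 of 41 without the intensity trend, beside 30.6%, and 5 of 41 without shRNA in the model, beside 19.9%. Under the other alternatives 12 to 19 were called, beside 32.2% to 40% of all genes or probe sets. Every gene called under an alternative was among the 18 except GABARAPL1, gained without the trend, and MAP1LC3B, gained when each probe set was tested on its own. Hydrolases called numbered 6 of 24 without the filter, 6 of 20 without the trend and 4 of 20 without shRNA in the model. Otherwise they numbered 9 or 10, and those called were higher in every setting. With each probe set on its own ATG5 was called in both directions. With p73 shRNA, 1 member was called without the trend (GAA, lower) and 4 with each probe set on its own. The other pathway genes called at confluence numbered 14 of 88 without the filter and 13 of 78 without shRNA in the model, against 27 of 78. Those called with p73 shRNA, 2 at first, numbered 0 without the filter, when probe sets were averaged, and without confluence in the model, 1 with the filter at the 70th percentile (GNPTAB) and 1 without the trend (FUCA1, lower, which was not among the 2). Members 1.5-fold changed in both backgrounds at confluence numbered 3, all higher, and 0 were 3-fold. Apart from ATG5, no member called under an alternative had the opposite direction to its value in the report. The cause of these changes was not tested, beyond the number of genes and the error model in each setting.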
